A study of Mus musculus with 5 samples.

Results

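Il17a and Il17f encode IL-17A and IL-17F, a pair of closely related secreted cytokines, and both symbols were looked up in every list of genes that the authors deposited for sub-clusters of group 2 innate lymphoid cells (ILC2s). The lookup covered 262 lists from 5 tissues and found both members, out of 688 genes that stood in at least 1 list. Of these 688 genes, 308 (44.8%) were listed for some sub-cluster against all others, and Il17a and Il17f were among them. The rule that picked the 2 genes used no measured value, but earlier results of these data were known when they were chosen. The study had itself reported Il17a as a distinguishing gene of intestinal sub-clusters high in Lgals1, the gene of galectin-1. Where the 2 genes are listed is therefore described here and not taken as independent support.

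The cells came from wild-type male C57BL/6 mice aged 6 weeks, 10 pooled per batch of libraries, and were profiled by droplet single-cell RNA sequencing of transcript 3′ ends, with 1 library per tissue. In large intestine (LI), bone marrow (BM), lung and pancreas they were sorted as lineage-negative cells carrying the IL-33 receptor ST2 and the IL-2 receptor chain CD25, and in small intestine (SI) as lineage-negative CD45+ cells with low Thy1 and high KLRG1. The LI, SI and lung libraries were made in 1 batch and those of BM and pancreas in another. The intestinal tissues were digested for 90 min, lung for 60 min and pancreas for 30 min, whereas BM was flushed out. The authors divided the cells of BM and LI into 8 sub-clusters each, those of SI and pancreas into 7 each and those of lung into 6. Each sub-cluster has a list of genes higher in it than in all others of its tissue (36 lists) and 1 list against each other sub-cluster in turn (226 lists, called 1 versus 1 here). Because the lists name genes without any measured value, the number of cells and the depth behind them are unknown and no size of difference can be stated. There was also no replicate library, so no test was possible. A gene missing from a list may still be expressed.

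IL-17A and IL-17F act as homodimers or as a heterodimer on a receptor made of IL-17RA and IL-17RC, through the adaptor Act1 (gene Traf3ip2), and induce neutrophil-attracting chemokines, IL-6 and antimicrobial proteins in epithelial and stromal cells. In the gut wall they take part in the barrier against bacteria. They are the hallmark of Th17 cells, ILC3s and certain gamma-delta T cells, in which the transcription factors STAT3, IRF4, BATF and RUNX1 take part in driving them. ILC2s are instead defined by GATA3 and by IL-5 and IL-13, but mouse ILC2s that respond to IL-25, called inflammatory ILC2s, and ILC2s exposed to Notch signals have been linked to IL-17 production.

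Both genes lie side by side on mouse chromosome 1 (build mm10, the build named in the submitters' processing notes). In GENCODE M21, Il17a (ENSMUSG00000025929) occupies chr1:20730905-20734496 on the plus strand, 3592 bases with 1 annotated transcript. Il17f (ENSMUSG00000041872) occupies chr1:20777146-20790617 on the minus strand, 13472 bases with 4 annotated transcripts. Their ends are 42649 bases apart with 0 annotated genes between them, and they are transcribed towards each other. The next genes outward are Gm28653, a long non-coding RNA gene 46606 bases from Il17a, and Mcm3, a subunit of the replicative helicase, 12350 bases from Il17f. Neither neighbour stood in any of the 262 lists.

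The proximal promoters are shown because the 2 genes were listed together in LI. Each is the 200 bases before the start site in the RefSeq table for GRCm38.p6, given 5′ to 3′ along the gene, Il17a from chr1:20730705-20730904 (plus strand) and Il17f from chr1:20784271-20784470 (minus strand). The Il17f stretch precedes the shorter of its protein-coding transcripts and lies within the span of the longer one. Capitals mark AGGTCA (core of the element bound by ROR factors), ACCACA (RUNX site) and TATAAA (the core promoter box), each searched on both strands, and no marked matches overlap.
Il17a: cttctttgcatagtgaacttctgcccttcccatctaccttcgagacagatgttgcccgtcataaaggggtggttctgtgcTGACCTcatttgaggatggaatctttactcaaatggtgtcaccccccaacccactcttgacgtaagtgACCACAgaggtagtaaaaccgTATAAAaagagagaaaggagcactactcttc
Il17f: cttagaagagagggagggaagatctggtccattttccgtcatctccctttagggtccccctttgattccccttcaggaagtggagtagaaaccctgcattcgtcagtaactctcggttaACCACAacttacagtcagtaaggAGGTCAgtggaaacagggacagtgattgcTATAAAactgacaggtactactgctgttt

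Counted from the start site, the ROR core began at -120 in Il17a, on the minus strand and therefore printed as TGACCT, and at -58 in Il17f. The RUNX letters began at -52 in Il17a and at -81 in Il17f, and the core promoter box at -31 in Il17a and at -29 in Il17f. Of 32851 promoter windows of the same length, 11.4% held AGGTCA, 11.2% held ACCACA and 9.96% held TATAAA. The letters TGACGTNA, a cyclic AMP response element, were found in the Il17a window at -63 and in 2.31% of all windows, but not in the Il17f window. GGAAA, the core recognised by NFAT, was found in the Il17f window at -168 on the minus strand and at -50, in 47.6% of all windows, and not in that of Il17a. Neither window held TGANTCA (AP-1, 5.48% of all windows), TTCNNNGAA (STAT, 5.49%) or GCGTG (aryl hydrocarbon receptor, 24.7%). These are matches of letters in short windows, and no binding was measured.

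Il17a was listed for 1 sub-cluster of each intestinal tissue, LI 6 and SI 4, and for no sub-cluster of BM, lung or pancreas. Il17f was listed for LI 6 and for no other sub-cluster of any tissue. Il17a stood in 13 lists, 7 of LI 6 and 6 of SI 4, and Il17f in 7, all of LI 6. The lists of LI 6 against all others and of SI 4 against all others both held Il17a, and 64 of the 688 genes (9.3%) were listed against all in at least 1 sub-cluster of LI and 1 of SI. In all, 127 genes (18.5%) were listed against all in 2 or more sub-clusters. Il17f was one of 152 genes (22.1%) that were listed in LI and in no other tissue.

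**Figure D1:**
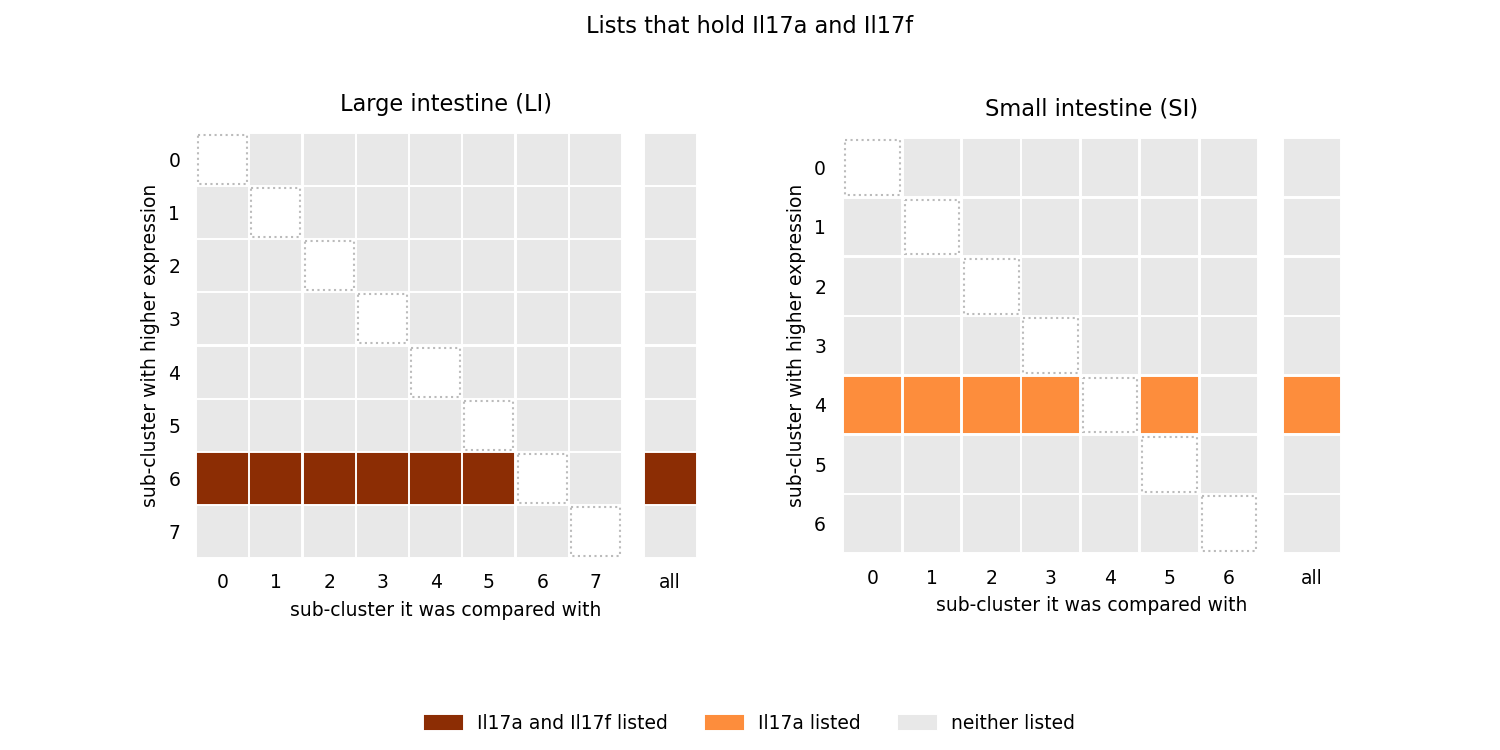
Lists that hold Il17a and Il17f in LI (left) and SI (right). Rows are the sub-cluster with the higher expression and columns the sub-cluster it was compared with, or all others. Only LI 6 (both genes, 7 lists) and SI 4 (Il17a, 6 lists) have coloured cells.

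In LI 6, both cytokines were listed against 6 of the 7 other sub-clusters, namely 0, 1, 2, 3, 4 and 5, and against all others together. The 1 versus 1 lists of LI 6 had a median of 64 genes, against 35.5 over all 56 such lists of LI. LI 6 had 64 genes against LI 0 (9.3% of the 688), 65 against LI 1 (9.45%), 45 against LI 2 (6.54%), 100 against LI 3 (14.5%), 57 against LI 4 (8.28%), 64 against LI 5 (9.3%) and 50 against all (7.27%). The exception was LI 7, against which LI 6 had 11 genes (1.6%), with neither cytokine among them. Over the 7 comparisons, 144 genes (20.9%) were higher in LI 6 than in at least 1 other sub-cluster.

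In SI 4, Il17a was listed against 5 of the 6 other sub-clusters, namely 0, 1, 2, 3 and 5, and against all others. Its 1 versus 1 lists had a median of 29.5 genes, against 30 over all 42 such lists of SI. SI 4 had 27 genes against SI 0 (3.92%), 57 against SI 1 (8.28%), 30 against SI 2 (4.36%), 37 against SI 3 (5.38%), 24 against SI 5 (3.49%) and 24 against all (3.49%). Against SI 6, SI 4 had 29 genes (4.22%), without Il17a. Over the 6 comparisons together, 91 different genes (13.2%) were higher in SI 4 than in at least 1 other sub-cluster. Il17f was in none of the lists of SI 4.

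Neither cytokine was listed in the opposite direction. No other sub-cluster of LI had Il17a or Il17f among the genes higher than in LI 6, and none of SI had them above SI 4. The lists compare sub-clusters of the same tissue only. Those opposite lists were not short, with 203 genes (29.5%) lower in LI 6 than in at least 1 other sub-cluster and 138 genes (20.1%) lower in SI 4. LI 7 and SI 6, the sub-clusters against which the cytokines were not listed, did not list Il17a or Il17f against any other sub-cluster either. In the 1 versus 1 lists as a whole, Il17a was in 11 of 226 (4.87%) and Il17f in 6 of 226 (2.65%).

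Recurrence was set against that of all genes. The median gene stood in 6 lists (range 1 to 59). Il17a, with 13, was among 175 genes (25.4%) with at least 13 lists, of which 37 (21.1%) were like it confined to at most 1 sub-cluster per tissue. Il17f, with 7, was among 322 genes (46.8%) with at least 7 lists, of which 48 (14.9%) were like it confined to 1 sub-cluster of 1 tissue. Comparisons within a tissue share the cells of the sub-cluster, so the lists are not independent of one another. A listing against all was backed in the median by 80% of the 1 versus 1 lists of that sub-cluster (508 listings). For Il17a the share was 85.7% in LI 6 and 83.3% in SI 4, and for Il17f 85.7% in LI 6, close to that median.

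The place of each gene within its lists was also read. The labels and methods do not say what the order of genes in a list stands for, so a place is reported as deposited and not as a size of difference. Il17a was first in the lists of LI 6 against LI 3 and LI 5, and second against LI 0, 1, 2, 4 and against all, each time behind Tnfsf8, which encodes the CD30 ligand. In SI 4, Il17a was first against SI 3, SI 5 and all, second against SI 2 behind Cd74, the MHC class II invariant chain, and at place 3 against SI 0 and SI 1. The genes before it were Gzma, a granzyme, and Cd74 against SI 0, and Ramp3, a receptor accessory protein, and Ubald2 against SI 1. Il17a was thus first in 5 and first or second in 11 of its 13 lists.

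Il17f stood further down the same lists. Its place was 8 against LI 0 and LI 5, 7 against LI 1, LI 3 and LI 4, 4 against LI 2 and 5 against all. In all 7 lists that hold both genes, Il17a came before Il17f, by 2 to 7 places. No list held Il17f without Il17a, whereas 6 lists, all of SI 4, held Il17a without Il17f. SI and LI differed in tissue, in sorting gate and in library, and these cannot be told apart in the absence of Il17f from the lists of SI 4.

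**Figure D2:**
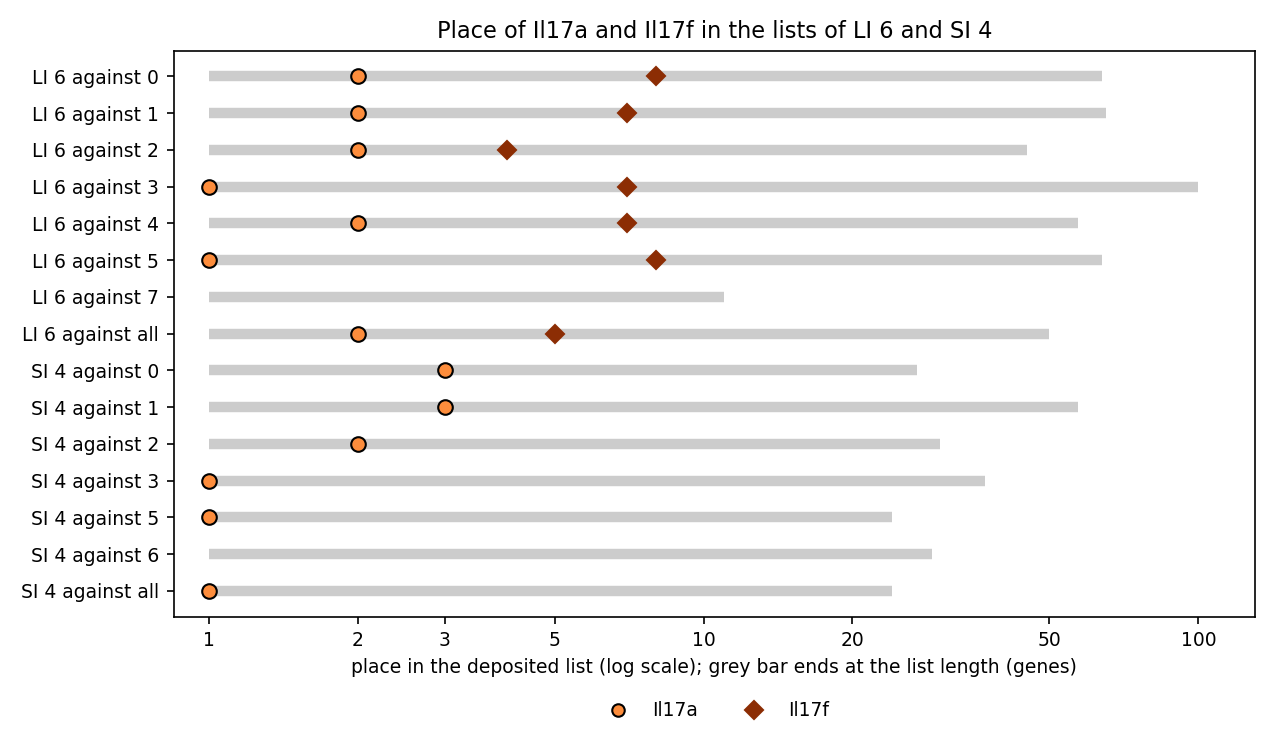
Place of Il17a (circles) and Il17f (diamonds) in each list of LI 6 and SI 4. The horizontal axis is the place in the list on a log scale and each grey bar ends at the length of the list. Il17a sits at places 1 to 3 in every list that holds it, Il17f at places 4 to 8, and LI 6 against 7 and SI 4 against 6 have no marker.

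The comparisons that lack the cytokines were looked at next. The 11 genes higher in LI 6 than in LI 7 were Tnfsf8, Cd52, Serp1, Actn2, Lgals1, Ostf1, Siah2, Zeb2, Aprt, Akap13 and Sh3bgrl3. In the opposite direction, LI 7 had 65 genes, beginning with Ifit1 and Gbp2, which are induced by interferons, Csf2, the gene of the cytokine GM-CSF, and Isg15. Of the 50 genes listed for LI 6 against all, 23 were listed against every single sub-cluster except LI 7. They included Il17a, Il17f, Il6, Irf4, Ctla4 and Tph1, and also Cd74, which interferons induce. The cytokines were therefore not alone in missing from that comparison, and 10 of the 50 genes listed for LI 6 against all were listed against LI 7. Il17a and Il17f were listed in neither direction between LI 6 and LI 7.

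In SI, 3 of the 24 genes listed for SI 4 against all were listed against every single sub-cluster except SI 6. They were Il17a, H2-Eb1, an MHC class II chain, and Tor1aip1. SI 6 had 81 genes above SI 4, led by Hspa1a, Dnajb1 and Hspa1b, which encode heat shock proteins, and Il17a was not among them. Of the 24 genes listed for SI 4 against all, 15 were also listed against SI 6. Most of the signature of SI 4 thus held against SI 6 while Il17a did not, unlike LI, where most of the signature of LI 6 was missing against LI 7 together with the cytokines.

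The genes most like Il17a were ranked by the Jaccard index, the number of lists that hold both genes over the number that hold either, across all 262 lists. This is a description of co-listing, with no test. The long non-coding RNA gene 1700061F12Rik, Ctla4, an inhibitory receptor of T cells, and Lgmn, a lysosomal protease, had an index of 0.93. Each stood in all 13 lists of Il17a and in 1 more, that of SI 4 against SI 6. Ostf1, an SH3 domain protein, had 0.87, with the lists of LI 6 against LI 7 and SI 4 against SI 6 in addition. Zeb2, a zinc finger transcription factor, had 0.81 and was listed in the same 15 lists and in 1 of lung sub-cluster 1.

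Among the other genes were Cyb5a, which encodes cytochrome b5, at 0.85 with 11 lists, Ubald2 at 0.76 with 17 lists and Tor1aip1, an activator of torsin ATPases at the nuclear envelope, at 0.71 with 12 of its 16 lists shared. Il6, a cytokine that induces IL-17 in T cells and is itself induced by IL-17A in other cells, Lmnb1, which encodes lamin B1, and Tor1aip2 had 0.69, with all 9 of their lists shared. Il17f itself had an index of 0.54 to Il17a, since 6 lists of Il17a lack it.

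For Il17f, 8 genes had an index of 1, which means that they stood in the same 7 lists of LI 6 and nowhere else. They were Irf4, a transcription factor required for Th17 cells, Tph1, the first enzyme of serotonin synthesis and a gene of inflammatory ILC2s, Pmaip1, which encodes the pro-apoptotic protein NOXA, Ndrg1, Nmrk1, a kinase of NAD synthesis, Carnmt1, Mtmr10 and Selenot. Akap13, Birc2, Siah2 and Wnk1 followed at 0.88, with 1 further list each. Akap13, an anchoring protein of kinase A, and Siah2, a ubiquitin ligase, were listed against LI 7 in addition, and Wnk1, a kinase, for SI 4 against SI 1.

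**Figure D3:**
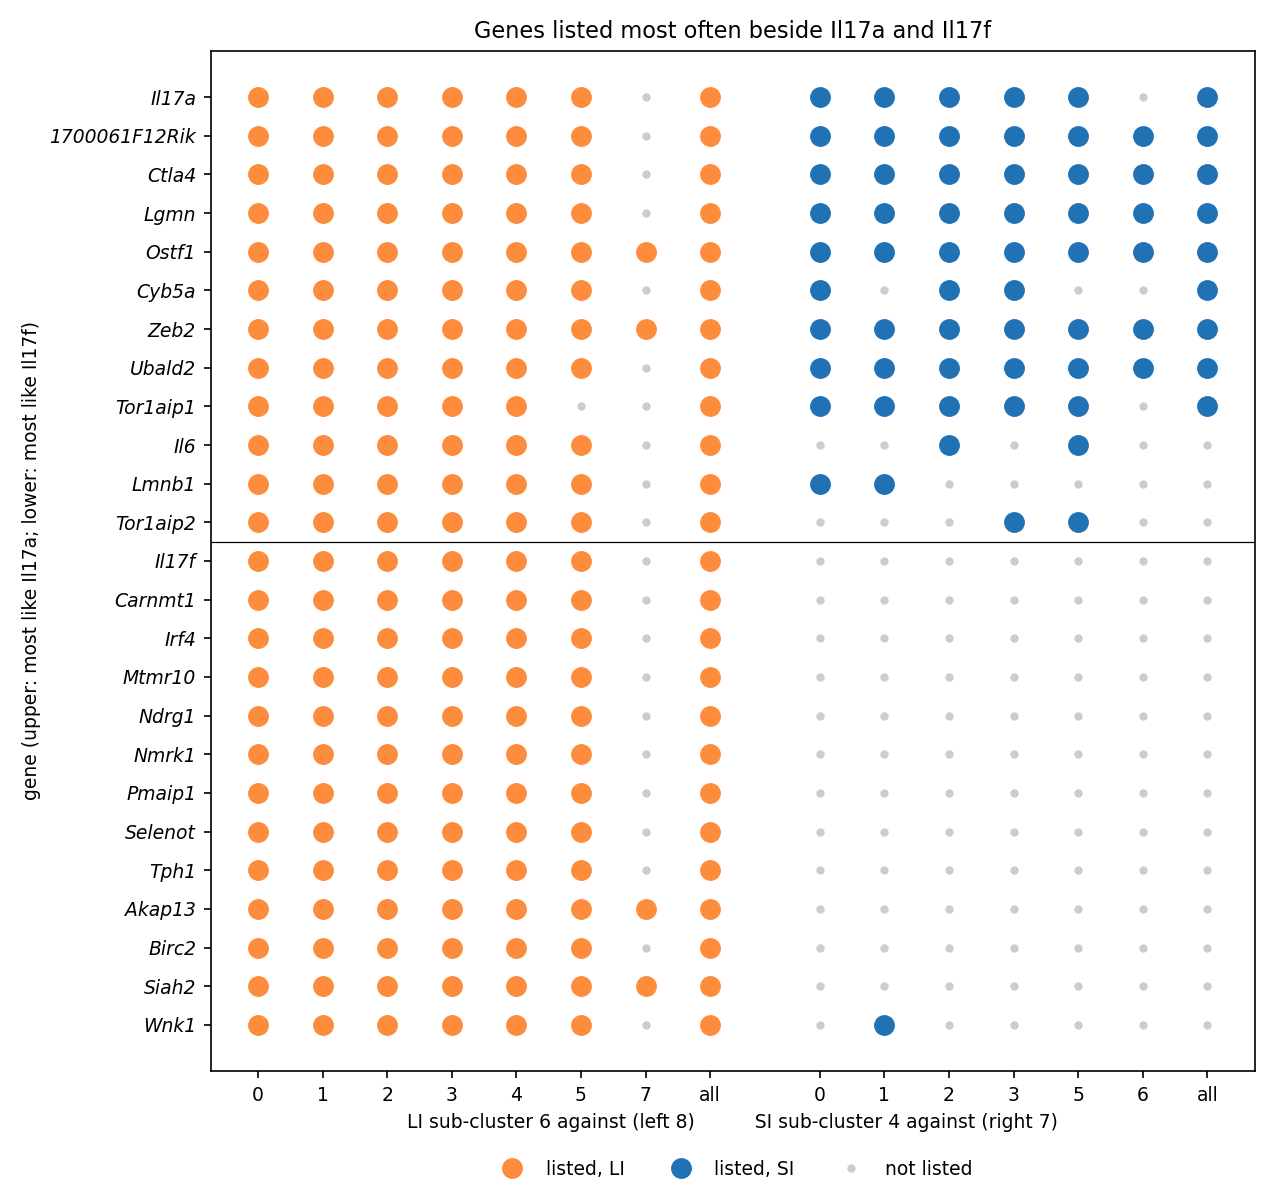
Genes listed most often beside Il17a (upper block) and Il17f (lower block). Columns are the 8 lists of LI 6 and the 7 lists of SI 4, large coloured points mark a listing and small grey points its absence. Ctla4, Lgmn and 1700061F12Rik fill all 13 positions of Il17a, and 8 genes show the 7 positions of Il17f.

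The intestinal sub-clusters shared more than Il17a. Their lists against all had 15 genes in common, 30% of the 50 genes of LI 6 and 62.5% of the 24 of SI 4. The other 14 were 1700061F12Rik, Actn2, Cd52, Cd74, Ctla4, Cyb5a, Lgals1, Lgmn, Ostf1, Tor1aip1, Ubald2, Uhrf2, Vim and Zeb2. Among them, 11 were listed for SI 4 against SI 6 and 5 for LI 6 against LI 7, the comparisons without Il17a. In every one of the 13 lists of Il17a, 8 genes accompanied it: 1700061F12Rik, Actn2, Ctla4, Lgals1, Lgmn, Ostf1, Ubald2 and Zeb2. Il17f was accompanied in every list by 31 genes, all in the long lists of LI 6.

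These companions differed in how far they reached beyond the gut. 1700061F12Rik, Ctla4, Lgmn, Ostf1, Ubald2 and Zeb2 were listed against all for LI 6 and SI 4 and for no further sub-cluster, as Il17a was. Actn2, which encodes an alpha-actinin, was listed against all for 4 sub-clusters, those of the gut and lung 1 and pancreas 5. Lgals1, which encodes the lectin galectin-1, was listed against all for 8 sub-clusters in all 5 tissues, of which 2 also listed Il17a. Tnfsf8 was listed against all for LI 6, lung 1 and pancreas 5, and for LI 6 against all 7 other sub-clusters. It was absent from all lists of SI 4.

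The pathway around the cytokines was then followed through lists of genes by role. Among the 6 IL-17 family ligands, Il17a and Il17f were listed in some column, and Il17b, Il17c, Il17d and Il25 in none. None of the 5 receptor genes, Il17ra to Il17re, was in any of the 262 lists. Of 14 genes that act downstream of the receptor, 5 were in some list and 0 in the lists of LI 6 or SI 4 against all. Those lists held 7.27% and 3.49% of all 688 genes. Of the 5, 2 were higher and 4 lower in LI 6 than in some other sub-cluster, beside 20.9% and 29.5% of all genes. In SI 4, 1 was higher and 4 were lower, beside 13.2% and 20.1%. Traf4, an adaptor that restrains the pathway, was listed higher in LI 6 than in LI 3 and in SI 4 than in SI 1. Cebpb, a transcription factor of the response, was lower in LI 6 than in LI 0, 2, 4 and 5 and lower in SI 4 than in SI 2 and 6. Nfkbiz, Zc3h12a and Tnfaip3, regulators induced by NF-kB, were lower in LI 6 than in LI 0 and lower in SI 4 than in SI 0, although Tnfaip3 was higher in LI 6 than in LI 1.

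Of 19 inducers and regulators of type 17 cells, 8 were in some list. Irf4 and Hif1a, the hypoxia-inducible factor subunit that favours Th17 cells, were listed for LI 6 against all, and none was for SI 4. Of all 688 genes, 7.27% were listed for LI 6 against all and 3.49% for SI 4. Of the 8 regulators, 3 were higher and 1 lower in LI 6 than in some other sub-cluster, beside 20.9% and 29.5% of all genes. In SI 4, 1 was higher and 2 were lower, beside 13.2% and 20.1%. Irf4 was higher in LI 6 than in 6 of 7 sub-clusters and in no list of SI 4, the distribution of Il17f. Hif1a was higher in LI 6 than in LI 0, 2, 3 and 5 and higher in SI 4 than in SI 1, 5 and 6. Batf, an AP-1 factor of Th17 cells, was higher in LI 6 than in LI 3. Junb was lower in LI 6 than in LI 0 and lower in SI 4 than in SI 0, and Rora, which encodes a ROR factor used by ILC2s, was lower in SI 4 than in SI 0. Ahr, Maf, Runx1, Il23r and Il1r1 were in no list. Stat3, Ikzf3 and Il6ra were listed only for sub-clusters other than LI 6 and SI 4.

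Of 15 genes that IL-17A induces in its target cells, 7 were in some list. Of these 7, 4 were lower in LI 6 than in some other sub-cluster and 6 were lower in SI 4, beside 29.5% and 20.1% of all 688 genes. Il6 was the only one higher in LI 6 or SI 4 than in another sub-cluster, beside 20.9% and 13.2% of all genes. It stood in 6 of the 1 versus 1 lists of LI 6 and in 2 of SI 4 (against SI 2 and SI 5). Csf2 was lower in LI 6 than in LI 0, 2, 3, 5 and 7 and lower in SI 4 than in SI 0, 1, 3, 5 and 6. The neutrophil chemokine gene Cxcl3 was lower in LI 6 than in LI 1 and lower in SI 4 than in SI 3. Cxcl1 was lower in SI 4 than in SI 6, and Cxcl2 lower in SI 4 than in SI 3 and SI 6. The counts of lower genes also include Nfkbiz and Zc3h12a, each lower than in LI 0 and SI 0. Both were already counted among the genes that act downstream of the receptor.

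Of 5 type 2 cytokine genes, 4 were in some list. For LI 6 against all 1 (Il13) was listed and for SI 4 0, beside 7.27% and 3.49% of all 688 genes. In each, 3 were higher than in at least 1 other sub-cluster, beside 20.9% of all genes for LI 6 and 13.2% for SI 4. In LI 6, 1 was lower than in some other sub-cluster and in SI 4 0, beside 29.5% and 20.1%. Il13 was higher in LI 6 than in all others together and than in LI 0, 2, 3, 4 and 5, and higher in SI 4 than in SI 1, 2 and 5. It was also listed against all for LI 1 and SI 3, which did not list Il17a. Il4 was higher in LI 6 than in LI 1, 3 and 4 and higher in SI 4 than in SI 3. Il5 was higher in LI 6 than in LI 3 and lower in LI 6 than in LI 1. Areg, which encodes the repair factor amphiregulin, was higher in SI 4 than in SI 2. Il9 was in no list.

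Markers of cell types were counted in the same way, to see what else the Il17a-listing sub-clusters carried. None of 7 ILC3 markers, Il22, Il23r and Ccr6 included, none of 7 gamma-delta T cell markers, Trdc included, and none of 6 B cell markers was in any of the 262 lists. According to the study's methods, cells with CD3, B220, CD11b, CD11c or the IgE receptor on their surface were left out by the sort. Clusters carrying genes of ILC3s, T, B, NK, myeloid or endothelial cells or ILC1s were then removed from the data, but the order of this step and the deposited lists is not stated there. Of 9 T cell markers, 2 were in some list, Cd3g and Cd28. In LI 6, 1 was higher and 1 lower than in some other sub-cluster, beside 20.9% and 29.5% of all 688 genes. In SI 4, 0 were higher and 0 lower, beside 13.2% and 20.1%. Cd3g, a chain of the T cell receptor complex, was listed for LI 6 against all, as were 7.27% of all genes. It was also listed against LI 0, 1, 2, 3 and 5, but in no list of SI 4. Lung 1 and pancreas 5 also listed it against all, without Il17a. Cd3d, Cd3e, Cd4, Cd8a, Trac, Trbc1 and Trbc2 were in no list, and Cd28 was lower in LI 6 than in LI 1, 2 and 3. Whether Cd3g and the cytokines were in the same cells cannot be read from lists. The labels and methods do not say how doublets, droplets with more than 1 cell, were treated.

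Of 10 ILC2 markers, 8 were in some list. In LI 6, 3 were higher and 4 lower than in some other sub-cluster, beside 20.9% and 29.5% of all 688 genes. In SI 4, 1 was higher and 3 were lower, beside 13.2% and 20.1%. Gata3 and Klrg1 were in no list of LI 6 or SI 4 in either direction. Il2ra, the gene of CD25, was lower in LI 6 than in LI 0, 1, 2 and 4 and lower in SI 4 than in SI 3. Il1rl1, the gene of ST2, the other surface protein used to sort the LI cells, was in no list. Il13 was listed for LI 6 against all and against LI 0, 2, 3, 4 and 5. In SI 4 it was higher than in SI 1, 2 and 5. Neither LI 6 nor SI 4 had Il13 lower than in another sub-cluster. Il5 was higher in LI 6 than in LI 3 and lower than in LI 1, and in no list of SI 4 in either direction. Rora was lower in SI 4 than in SI 0. Icos was lower in LI 6 than in LI 1. Id2 was higher in LI 6 than in LI 3 and lower in LI 6 than in LI 0, and lower in SI 4 than in SI 0 and 3. Of 8 genes of inflammatory ILC2s, 6 were in some list. Tph1 was listed for LI 6 against all and Batf was higher in LI 6 than in LI 3, 2 genes beside the 20.9% of all 688 that were higher in LI 6 than in some other sub-cluster. SI 4 had 0, beside 13.2%, so these small counts do not set the group apart. Of 9 NK cell and ILC1 markers, 2 were in some list, Gzma and Ccl5. Gzma was higher in SI 4 than in SI 0, beside 13.2% of all 688 genes higher than in some other sub-cluster. Ccl5 was in no list of LI 6 or SI 4 in either direction. The 2 of 6 myeloid markers that were listed, Fcer1g and Tyrobp, were not in the lists of LI 6 or SI 4.

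Over all 15 gene lists, 38 of 116 genes other than Il17a and Il17f were in some column. For LI 6 against all, 7 were listed (Cd3g, Hif1a, Il13, Il6, Irf4, Tnfsf8 and Tph1), and for SI 4 against all, 0. Of all 688 listed genes, 7.27% were listed for LI 6 against all and 3.49% for SI 4 against all, which is the background for the 38. Across the 36 sub-clusters the median number of members listed against all was 0 for each of the 15 lists. The most in any sub-cluster was 3, for the ILC2 markers.

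**Figure D4:**
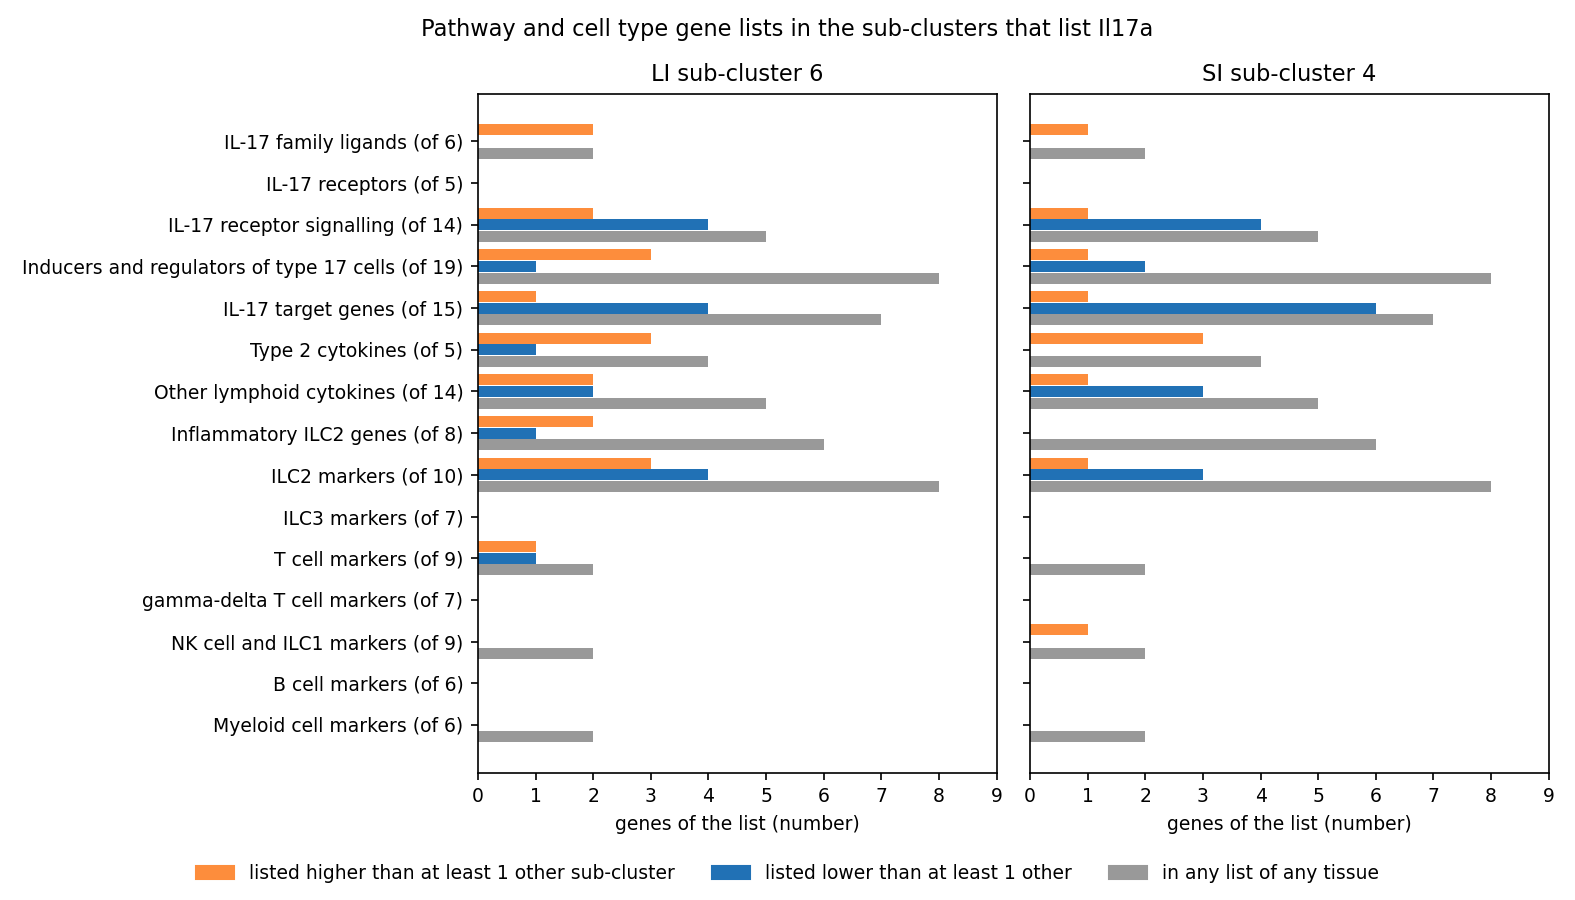
Members of each gene list in LI 6 (left) and SI 4 (right). Orange bars count genes higher than in at least 1 other sub-cluster, blue bars genes lower than in at least 1 other and grey bars genes in any list of any tissue, with the size of each list in its label. Receptors, ILC3, gamma-delta T cell and B cell markers have no bar, and IL-17 target genes have 1 higher in each sub-cluster against 4 lower in LI 6 and 6 lower in SI 4, where of all 688 genes 20.9% were higher and 29.5% lower in LI 6 and 13.2% higher and 20.1% lower in SI 4.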

How the data were processed

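The deposited tables, 1 per tissue, hold lists of gene symbols in the authors' columns, with headers in line 4 and no numeric values. Per the submitters' processing notes, the tools were Seurat 2, run in R 3.6.1, and Cell Ranger, with build mm10. The threshold behind a listing and the meaning of gene order are not stated by the labels or the methods. All 262 lists were read with Python 3.11.15, 23 of them empty, and symbols were matched exactly after removal of spaces. Of 688 symbols, 681 matched 1 gene of GENCODE M21. Promoters came from the RefSeq table.

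The members and the gene lists were chosen with earlier results of these data known. Genes named were the members, the 10 genes most like each by Jaccard index with ties, genes shared by the lists of LI 6 and SI 4 against all, gene list members listed with Il17a or Il17f, and neighbours on the chromosome. Others, such as the genes of the lists against LI 7 and SI 6, the genes before Il17a and the gene list members that were lower, were chosen after the lists were seen. Shares are of the 688 listed genes, because the full set of genes tested is unknown, so they overstate the share of all genes. Some items are not reported here. The reading of lists was tested on simulated data.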

Additional observations from a re-analysis of the deposited data

How the results depend on the processing

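Il17a was listed for 2 sub-clusters and Il17f for 1 by the lists against all, and these counts held when any 1 versus 1 list, or at least 50% of them, was required. Requiring every 1 versus 1 list gave 0 sub-clusters for Il17a and 0 for Il17f, because LI 6 against LI 7 and SI 4 against SI 6 lack them. Matching through synonyms and in any case left 11 and 6 of the 1 versus 1 lists. Of the 11 genes most like Il17a, 8 stayed with the lists against all alone, 10 with the 1 versus 1 lists of LI and SI and 10 with the phi coefficient. Of 7 gene list members beside Il17a, 1 (Tnfsf8) stayed when every 1 versus 1 list was required. Taking only the genes listed in the tissue as the base, the share of genes listed against all was 10.7% for LI 6 and 7.10% for SI 4, against 7.27% and 3.49% of the 688. No paired analysis was possible because each tissue had 1 library and the labels carry no replicate numbers, and for the same reason no library could be left out. The lists carry no values, so depth and the size of differences could not be assessed.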

Other observations

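The genes lower in the Il17a-listing sub-clusters were read from the opposite lists, and those named here were chosen after the lists were seen. Cd27, a TNF receptor family member that costimulates lymphocytes, was lower in LI 6 than in all 7 other sub-clusters of LI. Dusp5, a phosphatase of ERK kinases, Plaur, the urokinase receptor, S100a4, a calcium-binding protein, Txk, a Tec family kinase, and the predicted genes Gm20186 and Gm49339 were lower in LI 6 than in 6 of the 7.

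In SI 4, Txk was lower than in all 6 other sub-clusters, as were Cd81, a tetraspanin, and Tmem176a and Tmem176b, a pair of ion channel genes of intracellular membranes. Csf2 and Gem, a small GTPase, were lower in SI 4 than in 5 of the 6. Txk thus had the opposite direction to Il17a in 6 comparisons of LI and 5 of SI, since Il17a was not listed between SI 4 and SI 6. These are listings without values, and whether Txk and Il17a differ between the same cells cannot be read from them.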
